A study of Mus musculus with 12 samples.

Results

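The BCL2 family survival and death genes Bcl2, Bcl2l1, Mcl1, Bcl2a1a, Bcl2a1b, Bcl2a1d, Bcl2l11, Bax, Bak1 and Bid, 10 in all, were taken by mouse gene symbol from the 54532 Ensembl genes of the deposited table, and the rule itself used no measured value. Each of the 10 symbols matched 1 Ensembl gene, and each passed the filter on low values, which kept the 11335 genes that reached 1 FPKM in 3 or more of the 12 libraries. RNA was sequenced from cultured bone marrow macrophages of wild-type mice and from osteoclasts, the multinucleated bone-resorbing cells that such macrophages form under RANKL. The 4 groups were macrophages kept without RANKL and without LPS, macrophages kept without RANKL and given LPS, osteoclasts grown with RANKL and left without LPS, and osteoclasts grown with RANKL and given LPS, with 3 libraries each. All cultures had a conditioned supplement (CMG) as their source of M-CSF. RANKL was 100 ng/mL per the sample source, while the protocol gives a range. LPS, the bacterial lipopolysaccharide sensed by TLR4, was added on day 5, for 3 h and at 100 ng/mL.

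Proteins of the BCL2 family decide whether the outer mitochondrial membrane stays intact when a cell is stressed. The survival proteins MCL1, BCL-XL (gene Bcl2l1), BCL2 and A1 (genes Bcl2a1a, Bcl2a1b and Bcl2a1d) bind and restrain the pore formers BAX and BAK (genes Bax and Bak1). Sensor proteins such as BIM (gene Bcl2l11) and BID occupy the survival proteins or activate the pore formers, after which cytochrome c leaves the mitochondrion and caspases are activated. In the macrophage lineage, A1 is known as an NF-kB-induced survival factor, BCL-XL and MCL1 are known to keep osteoclasts alive, and BIM is known to limit the life of osteoclasts.

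The labels do not say whether the 3 libraries of a group came from separate mice or separate cultures, so p-values measure only the spread between these libraries, which may be technical. Between 14872645 and 19275019 reads per library were recovered from the values. The sums of the FPKM values lay between 255852 and 261584 in untreated macrophages, 399796 and 408994 in LPS-treated macrophages, 341998 and 348760 in untreated osteoclasts, and 354564 and 377667 in LPS-treated osteoclasts, so the deposited values were not scaled to a common sum. The labelled states were present in the RNA: the summed FPKM of 10 osteoclast markers was 16.3 to 29.0 in the 6 macrophage libraries and 29220 to 32220 in the 6 osteoclast libraries, and Tnf was higher in every LPS library than in any untreated library of the same cell type. Of 8 macrophage markers, Adgre1 had a mean of 428 FPKM in untreated macrophages and 33.2 FPKM in untreated osteoclasts, and Cx3cr1 142 and 0.486 FPKM. Csf1r had 441 and 310 FPKM in these groups, and Cd68 was higher in the osteoclasts, at 670 and 1402 FPKM. Summed stromal markers were 24.5 to 34.1 FPKM in macrophages and 0.211 to 0.858 FPKM in osteoclasts, with Dcn and Lum listed at 0 in macrophages. Summed neutrophil markers were 4.53 to 12.7 FPKM in macrophages and at most 1.76 FPKM in osteoclasts, with Ly6g, Mpo and Elane under 0.1 FPKM in all groups. Summed T cell markers were at most 0.182 FPKM in macrophages and 2.92 to 3.96 FPKM in osteoclasts, nearly all of it Trac (means of 3.84 FPKM without and 3.14 FPKM with LPS), while Cd3d, Cd3e and Cd3g were under 0.1 FPKM in all groups. These marker levels move with the cell type, and their part in the cell type differences below was not tested. Markers also moved with LPS. Summed osteoclast markers were 16.3 to 20.5 FPKM in untreated macrophages and 24.7 to 29.0 FPKM in LPS-treated ones, with Acp5 going from a mean of 0.950 to 14.6 FPKM. In macrophages the mean of Cd14 went from 109 to 779 FPKM, that of Adgre1 from 428 to 670 FPKM and that of Cx3cr1 from 142 to 37.8 FPKM. In osteoclasts Cd14 went from 16.2 to 45.3 FPKM and Adgre1 from 33.2 to 62.2 FPKM. Neutrophil S100a9 went from 2.96 to 6.29 FPKM in macrophages, while the summed neutrophil markers of treated and untreated macrophages overlapped. Summed dendritic cell markers went from 0.259 to 0.280 FPKM in untreated macrophages to 5.26 to 5.98 FPKM with LPS, nearly all of it Xcr1, with Flt3 and Siglech under 0.1 FPKM, and from 0.602 to 0.692 FPKM to 1.24 to 1.71 FPKM in osteoclasts. Summed endothelial markers went from 2.57 to 2.95 FPKM to 4.93 to 5.06 FPKM in macrophages (Kdr from a mean of 1.72 to 2.45 FPKM, Cdh5 from 1.03 to 2.37 FPKM) and from 0.172 to 0.391 FPKM to 0.773 to 1.55 FPKM in osteoclasts. Their part in the LPS differences below was not tested. In such bulk libraries, fewer cells of a type and less RNA per cell cannot be told apart.

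The A1 genes were the members that moved most under LPS, and they are near-identical copies on mouse chromosome 9. In GRCm38 with GENCODE M21, Bcl2a1a (ENSMUSG00000102037) lies on the forward strand at chr9:88956900-88962419, Bcl2a1b (ENSMUSG00000089929) on the forward strand at chr9:89199209-89207827 and Bcl2a1d (ENSMUSG00000099974) on the reverse strand at chr9:88723285-88731914. The first 150 of the 516 coding bases (the stop codon not counted) are shown because 7 of the 12 positions at which the copies differ lie there. Capitals mark positions at which the 3 copies are not all alike. The windows span chr9:88957051-88957200 (forward), chr9:89199360-89199509 (forward) and chr9:88731570-88731719 (reverse).
Bcl2a1a: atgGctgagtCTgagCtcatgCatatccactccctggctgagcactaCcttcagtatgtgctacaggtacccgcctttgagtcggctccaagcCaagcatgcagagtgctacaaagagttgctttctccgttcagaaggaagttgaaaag
Bcl2a1b: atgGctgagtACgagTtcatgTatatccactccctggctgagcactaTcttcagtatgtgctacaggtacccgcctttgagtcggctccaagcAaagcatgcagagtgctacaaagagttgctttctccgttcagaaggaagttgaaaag
Bcl2a1d: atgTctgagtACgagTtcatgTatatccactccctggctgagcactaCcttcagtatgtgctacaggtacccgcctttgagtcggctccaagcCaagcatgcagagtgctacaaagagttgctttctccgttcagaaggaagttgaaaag
The coding sequences were 97.9% identical between Bcl2a1a and Bcl2a1b, 98.6% between Bcl2a1a and Bcl2a1d, and 98.8% between Bcl2a1b and Bcl2a1d. Of all 100-base windows of its transcripts, 56.5% were unique to Bcl2a1a among annotated transcripts, 43.2% to Bcl2a1b and 45.3% to Bcl2a1d. With 150-base windows these shares were 71.8%, 58.1% and 69.7%. Read length and the treatment of reads that match several copies are not given in the sources used here. The split between the 3 copies is thus uncertain and their sum is the firmer measure. The sum too would be too low if such reads were left out. Bcl2a1b also shares 303 of its 718 windows of 100 bases with the overlapping gene Gm29094, which had at most 0.684 FPKM in any library. That low value does not show how reads in exons of both genes were counted, so Bcl2a1b may be undercounted. Outside the A1 genes, 94.7% of the 100-base windows of Bax and 100.0% of those of the other 6 members were unique.

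LPS raised 7 of the 10 members in macrophages and lowered 2, and 1 did not pass the test. The 3 A1 copies, Bcl2l11 and Mcl1 rose most, Bax and Bak1 rose by little, and Bcl2 and Bcl2l1 fell. On other scalings of the values the split was 5 higher and 5 lower (rescaled to TPM) or 4 higher and 5 lower (quantile normalization), with Bax, Bak1 and Bid then among the lower. A gene was called where limma, fitted to log2(FPKM + 1) of all 12 libraries, gave a Benjamini-Hochberg adjusted p under 0.05 over all genes tested. By that rule 69.9% of all tested genes were called in macrophages, 36.8% as higher and 33.1% as lower, so a call by itself sets a member little apart from the background. The median log2 difference of the members was 0.54, against 0.02 for all tested genes. In osteoclasts the same LPS treatment raised 4 members (the 3 A1 copies and Bid) and lowered 1 (Bcl2l1), and 5 did not pass. With TPM the split there was 3 higher and 2 lower, and under quantile normalization 4 and 2. There 17.7% of all genes were called, 11.1% as higher and 6.59% as lower, and the medians were 0.12 for the members and 0.01 for all genes. Treated and untreated libraries did not overlap for 9 of 10 members in macrophages, where 74.0% of all genes showed no overlap, and for 8 of 10 in osteoclasts, against 34.0% of all genes.

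**Figure D1:**
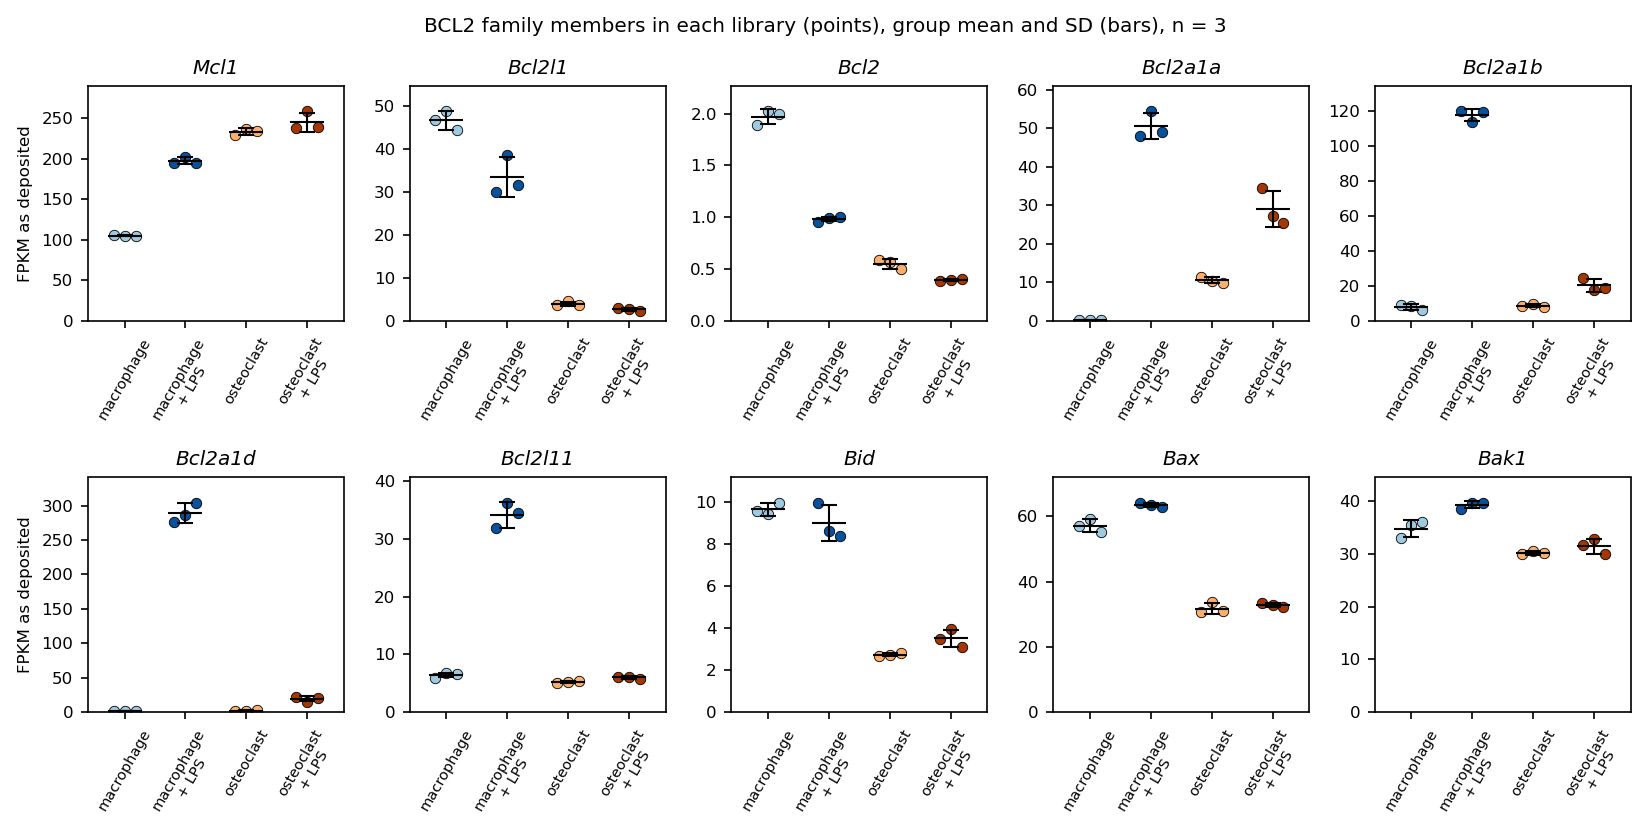
Deposited FPKM (y axis, from 0, own scale per panel) of the 10 members in each of the 12 libraries (points), with the group mean and SD (bars, n = 3), for macrophages (blue) and osteoclasts (orange) without and with LPS. The A1 copies and Bcl2l11 stand highest in LPS-treated macrophages, while Bcl2l1 lies between 29.9 and 48.9 FPKM in macrophages and at or under 4.49 FPKM in osteoclasts.

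Among the A1 copies, Bcl2a1d reached the highest level. It was 1.70, 1.77 and 1.93 FPKM in untreated macrophages and 276, 287 and 304 FPKM after LPS. In osteoclasts it was 1.88, 2.33 and 2.59 FPKM without LPS and 21.7, 15.3 and 21.1 FPKM with it. The treated and untreated libraries lay far apart in both cell types, and the LPS-treated macrophages stood above every osteoclast library. The ratio of means was 161-fold in macrophages and 8.55-fold in osteoclasts on the deposited scale. In TPM the means of Bcl2a1d went from 6.97 to 713 in macrophages and from 6.57 to 53.3 in osteoclasts, so the macrophage ratio was smaller there. On the log2(FPKM + 1) scale, which understates changes of low genes, the differences were 6.69 (SE 0.115, limma adjusted p = 3.36e-13) and 2.63 (SE 0.115, limma adjusted p = 1.89e-08).

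Bcl2a1a was nearly absent from untreated macrophages and present in untreated osteoclasts. Untreated macrophages held 2, 1 and 1 recovered reads, or 0.105, 0.0519 and 0.0548 FPKM, and LPS brought the gene to 48.0, 54.4 and 49.1 FPKM. Osteoclasts held 11.4, 10.3 and 9.84 FPKM without LPS and 34.4, 27.2 and 25.4 FPKM with it. No libraries overlapped between any of the 4 groups. On the deposited scale, with 3 reads per library as the floor, LPS-treated macrophages were at least 317-fold higher than untreated ones. By the same floor untreated osteoclasts were at least 66.1-fold higher than untreated macrophages. The floor covers counting error only, and these bounds were not computed after rescaling to TPM. In osteoclasts the LPS ratio was 2.75-fold (log2 difference 1.37, SE 0.096, limma adjusted p = 1.05e-06).

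Bcl2a1b was the main A1 copy of untreated macrophages, at 8.87, 8.48 and 5.99 FPKM, and rose to 120, 114 and 120 FPKM under LPS. In osteoclasts it was 8.16, 9.71 and 7.85 FPKM without LPS and 24.5, 17.8 and 18.6 FPKM with LPS. The untreated libraries of both cell types overlapped, and the treated ones did not. The LPS ratios were 15.2-fold in macrophages (log2 difference 3.78, SE 0.138, limma adjusted p = 1.73e-10) and 2.37-fold in osteoclasts (log2 difference 1.15, SE 0.138, limma adjusted p = 1.04e-04). In TPM the means of Bcl2a1b went from 30.1 to 291 in macrophages, a smaller ratio, and from 24.8 to 55.7 in osteoclasts. Of the differences between cell types without LPS, that of Bcl2a1a passed the test (log2 difference 3.43, SE 0.096, limma adjusted p = 1.13e-11), while Bcl2a1b (0.14, SE 0.138, adjusted p = 0.387) and Bcl2a1d (0.22, SE 0.115, adjusted p = 0.102) did not. The difference of Bcl2a1a was 5.97 with a pseudocount of 0.1 and 6.81 by voom on recovered reads. Bcl2a1d was called in that comparison under quantile normalization (0.37, adjusted p = 0.0103) and without untreated osteoclast replicate 1 (0.31, adjusted p = 0.0386) or LPS-treated osteoclast replicate 2 (0.22, adjusted p = 0.0179).

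Summed over the 3 copies, A1 transcripts were 9.65 ± 1.47 FPKM (SD, n = 3) in untreated macrophages and 457 ± 14.8 FPKM after LPS. Osteoclasts held 21.4 ± 1.05 FPKM without LPS and 68.7 ± 10.6 FPKM with it. The lowest treated osteoclast library, at 60.3 FPKM, was still above every untreated library, and all 6 osteoclast libraries were below the LPS-treated macrophages. The makeup of the sum differed between groups. Bcl2a1b made up 75.2% to 83.1% of it in untreated macrophages, Bcl2a1d 62.1% to 64.3% in LPS-treated macrophages, and Bcl2a1a 46.2% to 53.3% in untreated osteoclasts. With LPS, osteoclasts held 39.0% to 45.1% Bcl2a1a, 28.5% to 30.4% Bcl2a1b and 25.4% to 32.5% Bcl2a1d. Bcl2a1c, which lies apart from them at chr9:114330135-114330578, was listed at 0 in all 12 libraries.

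**Figure D2:**
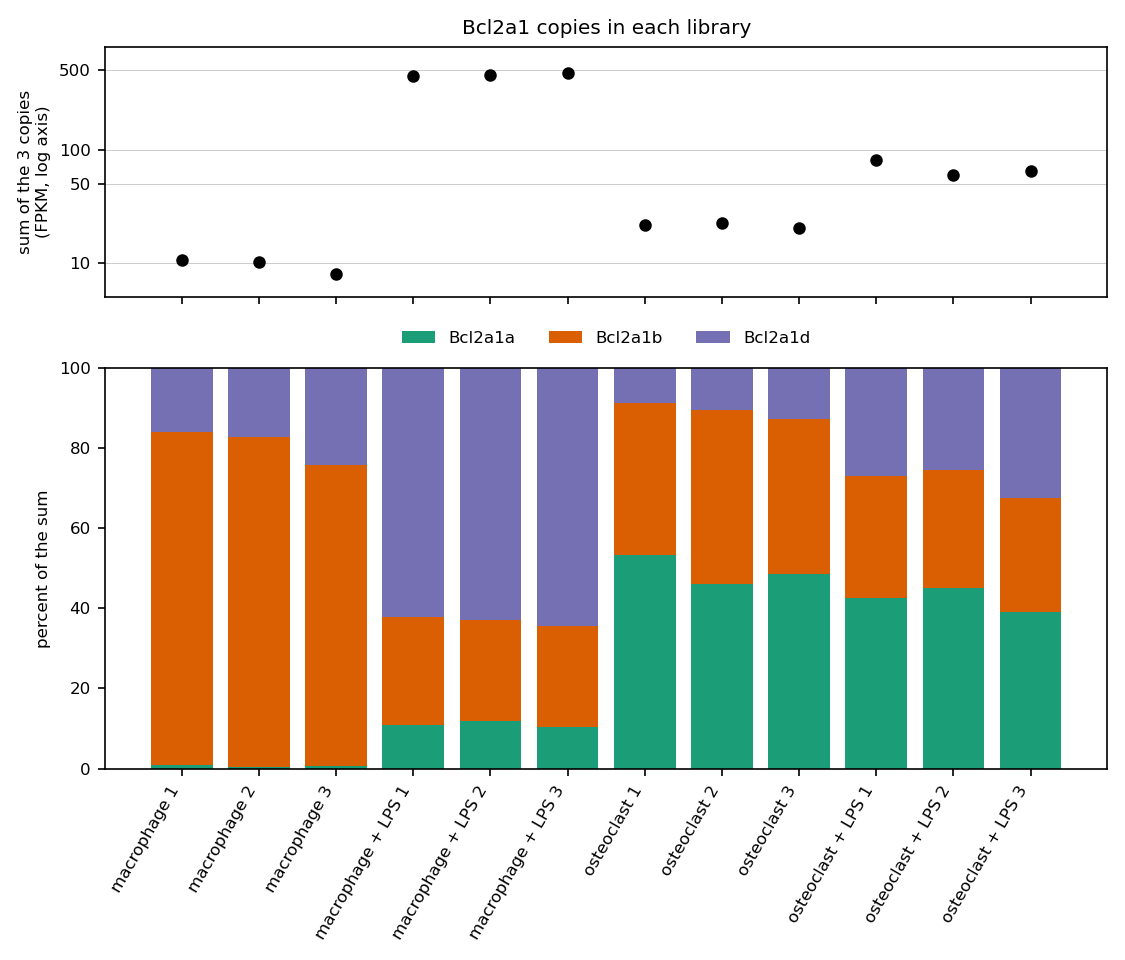
Sum of Bcl2a1a, Bcl2a1b and Bcl2a1d in each library (upper panel, FPKM on a log axis) and the percent of that sum from each copy (lower panel, stacked bars). The sum is 444 to 473 FPKM in the 3 LPS-treated macrophage libraries, and Bcl2a1a takes under 1% of it in untreated macrophages but 39.0% to 53.3% in the 6 osteoclast libraries.

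Mcl1 was the most abundant survival transcript in 3 of the 4 groups and was higher in osteoclasts than in macrophages. MCL1 is a short-lived protein that sequesters BIM and BAK. The gene (ENSMUSG00000038612, chr3:95658788-95663176, forward) had 105, 105 and 104 FPKM in untreated macrophages and 195, 202 and 194 FPKM with LPS. Osteoclasts had 229, 236.9 and 234 FPKM without LPS and 237.4, 259 and 239 FPKM with LPS. Untreated macrophages were lowest, LPS-treated macrophages next, and all 6 osteoclast libraries were above both. The LPS ratio in macrophages was 1.88-fold (log2 difference 0.91, SE 0.038, limma adjusted p = 6.25e-10), and untreated osteoclasts were 2.23-fold above untreated macrophages (1.15, SE 0.038, limma adjusted p = 4.94e-11). The osteoclast LPS difference was 0.070 (SE 0.038, limma adjusted p = 0.248) although the groups did not overlap, so the order of these top 2 groups is not shown by the test. The sizes for Mcl1 depended on the scaling. The macrophage LPS difference was 0.26 after rescaling to TPM (limma adjusted p = 2.78e-04) and 0.029 under quantile normalization (adjusted p = 0.618). The untreated cell type difference was 0.74 and 0.72 on these scales.

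Without LPS, Bcl2l1 had the widest gap between the cell types of the survival genes after Bcl2a1a. BCL-XL holds BAX and BAK in check at the mitochondrion. The gene (ENSMUSG00000007659, chr2:152780668-152831728, reverse) was at 46.8, 48.9 and 44.5 FPKM in untreated macrophages and 29.9, 38.7 and 31.7 FPKM with LPS. It was at 3.70, 4.49 and 3.73 FPKM in untreated osteoclasts and 2.98, 2.73 and 2.25 FPKM in LPS-treated ones. All 4 groups were free of overlap, in the order untreated macrophages, treated macrophages, untreated osteoclasts, treated osteoclasts. Osteoclasts were 11.8-fold lower than macrophages without LPS (log2 difference -3.27, SE 0.102, limma adjusted p = 2.76e-11) and 12.6-fold lower with LPS (-3.23, SE 0.102, limma adjusted p = 2.07e-11). LPS lowered it 1.40-fold in macrophages (-0.48, SE 0.102, limma adjusted p = 0.00117) and 1.498-fold in osteoclasts (-0.45, SE 0.102, limma adjusted p = 0.00977). The macrophage LPS difference of Bcl2l1 was -1.13 after rescaling to TPM and -1.07 under quantile normalization.

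Bcl2, the founding survival gene of the family, was scarce in every group. It (ENSMUSG00000057329, chr1:106538178-106714274, reverse) had 1.89, 2.02 and 2.00 FPKM in untreated macrophages and 0.958, 0.988 and 1.00 FPKM with LPS. Osteoclasts had 0.586, 0.569 and 0.495 FPKM without LPS and 0.381, 0.397 and 0.401 FPKM with LPS. No osteoclast library reached 1 FPKM, so Bcl2 passed the filter through macrophages, where it was highest. The order of the groups was that of Bcl2l1, again with no overlap. LPS lowered it 2.00-fold in macrophages (log2 difference -0.58, SE 0.058, limma adjusted p = 1.96e-06), and untreated osteoclasts were 3.58-fold below untreated macrophages (-0.94, SE 0.058, limma adjusted p = 1.49e-08). These differences of Bcl2 were -1.33 and -1.74 after rescaling to TPM, and -0.997 and -1.84 by voom on recovered reads. The osteoclast LPS difference missed the threshold (-0.15, SE 0.058, limma adjusted p = 0.0927). It passed with a pseudocount of 0.1 (-0.40, adjusted p = 0.0355), after rescaling to TPM (-0.31, adjusted p = 0.0366), under quantile normalization (-0.23, adjusted p = 0.0215) and by voom on recovered reads (-0.48, adjusted p = 0.0391).

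FPKM is scaled per length, so the survival transcripts can be set side by side, with less certainty for A1. How reads that match several A1 copies were counted is not given. If they were left out, the A1 sum and its share would be too low. The 6 survival genes summed to 163 ± 4.00 FPKM (SD, n = 3) in untreated macrophages, 689 ± 16.8 in LPS-treated macrophages, 259 ± 4.86 in untreated osteoclasts and 317 ± 8.64 in LPS-treated osteoclasts. Bcl2l2, a survival gene outside the members, is not in this sum. Its means were 4.11 FPKM in untreated and 4.56 FPKM in LPS-treated macrophages. In osteoclasts they were 6.15 FPKM without and 6.28 FPKM with LPS, above Bcl2l1 (3.97 and 2.65 FPKM). Each group held a different mixture of the 6 genes. Untreated macrophages held 64.2% Mcl1, 28.6% Bcl2l1, 5.91% A1 and 1.21% Bcl2. After LPS the A1 copies made up 66.4% of the sum and Mcl1 28.6%. Untreated osteoclasts held 90.0% Mcl1 and 1.53% Bcl2l1, and LPS-treated osteoclasts 77.4% Mcl1 and 21.7% A1. The ratio of Mcl1 to Bcl2l1 was 2.15 to 2.34 in untreated macrophages and 52.8 to 62.7 in untreated osteoclasts. Without the A1 copies the sum was 153 FPKM in untreated macrophages, 232 in LPS-treated macrophages, 238 in untreated osteoclasts and 248 in LPS-treated osteoclasts, and the last 3 groups overlapped one another. With each library rescaled to TPM, the sum did not separate treated from untreated macrophages: it was 594 ± 4.38 (SD, n = 3) without and 572 ± 28.4 with LPS, and 689 ± 11.7 and 685 ± 50.7 in osteoclasts. The 6 survival genes summed to 631, 1701, 751 and 873 TPM in the same order of groups.

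**Figure D3:**
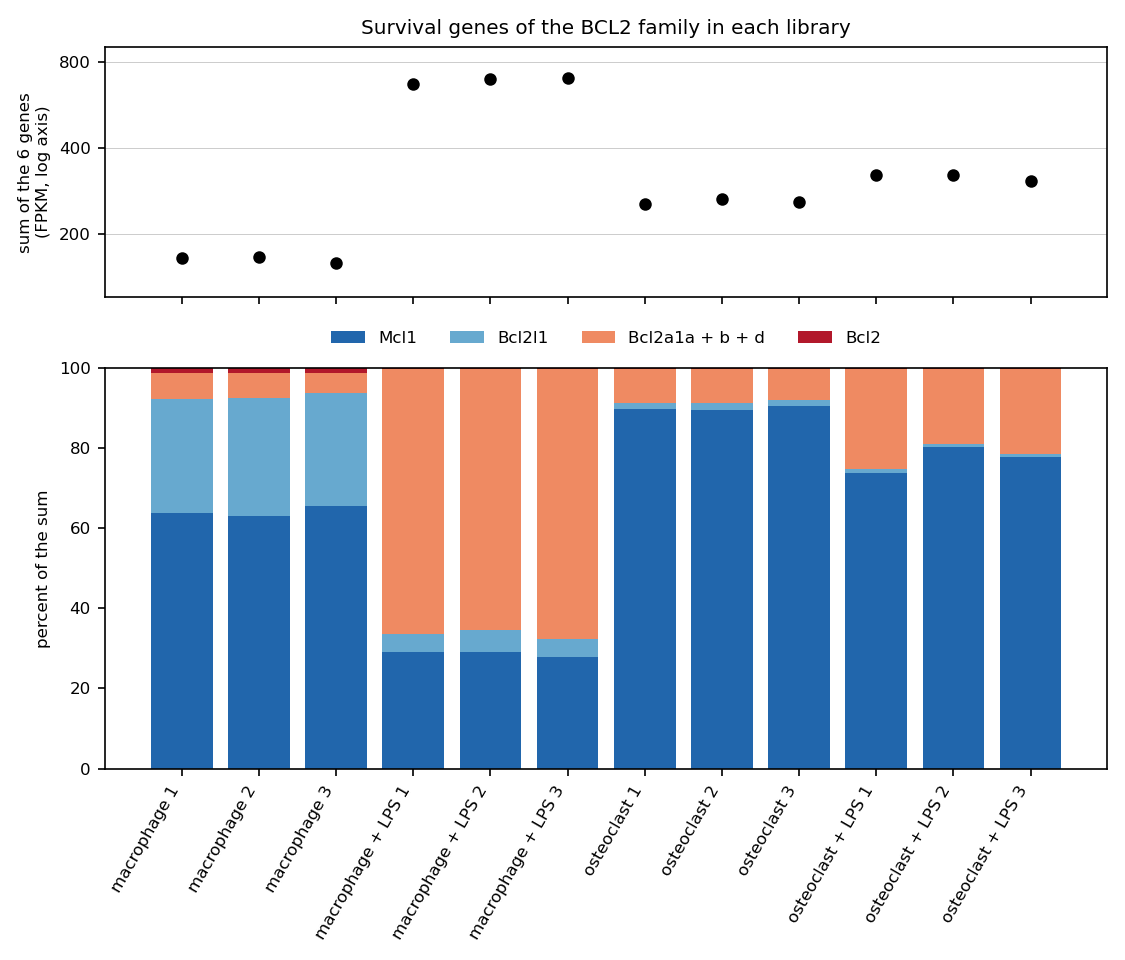
Sum of the 6 survival genes in each library (upper panel, FPKM on a log axis) and the percent from Mcl1, Bcl2l1, the 3 A1 copies together and Bcl2 (lower panel, stacked bars). A1 makes up 65.3% to 67.6% of the sum in LPS-treated macrophages, and Mcl1 89.6% to 90.5% in untreated osteoclasts.

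Of the death genes among the members, Bcl2l11 had the clearest LPS response in macrophages. BIM, its product, binds all survival proteins and can activate BAX and BAK. The gene (ENSMUSG00000027381, chr2:128126038-128162547, forward) had 6.00, 6.72 and 6.62 FPKM in untreated macrophages and 31.8, 36.3 and 34.5 FPKM with LPS. Osteoclasts had 5.12, 5.28 and 5.43 FPKM without LPS and 6.18, 6.09 and 5.79 FPKM with it. LPS-treated macrophages stood apart from the other 9 libraries, which all lay between 5.12 and 6.72 FPKM. The ratio in macrophages was 5.31-fold (log2 difference 2.24, SE 0.056, limma adjusted p = 5.93e-12). In osteoclasts it was 1.14-fold (0.16, SE 0.056, limma adjusted p = 0.0699), with no overlap between the groups, and it passed without LPS-treated macrophage replicate 1 (adjusted p = 0.0488). Untreated osteoclasts were slightly below untreated macrophages (-0.25, SE 0.056, limma adjusted p = 0.00161, and -0.67 after rescaling to TPM). Relative to Mcl1, Bcl2l11 was 0.0615 in untreated macrophages, 0.174 after LPS, 0.0226 in untreated osteoclasts and 0.0246 in LPS-treated osteoclasts.

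Bid, whose product links caspase-8 to the mitochondrion, was higher in macrophages than in osteoclasts. The gene (ENSMUSG00000004446, chr6:120891930-120916853, reverse) had 9.55, 9.39 and 9.96 FPKM in untreated macrophages and 9.95, 8.63 and 8.36 FPKM with LPS, and these libraries overlapped. Osteoclasts had 2.66, 2.72 and 2.80 FPKM without LPS and 3.47, 3.93 and 3.12 FPKM with it, with no overlap. Untreated osteoclasts were 3.54-fold lower than untreated macrophages (log2 difference -1.51, SE 0.073, limma adjusted p = 1.41e-09). The osteoclast LPS difference was 0.27 (SE 0.073, limma adjusted p = 0.0239), and that in macrophages was -0.095 (SE 0.073, limma adjusted p = 0.266). The osteoclast call was lost without any 1 of untreated osteoclast replicates 1, 2 and 3 or LPS-treated osteoclast replicates 1 and 2 (adjusted p between 0.0523 and 0.0714). It was also lost with no filter (adjusted p = 0.0581) and after rescaling to TPM (adjusted p = 0.0602). Bid shares exon sequence with Bcl2l13 on the opposite strand, which had 3.30 to 9.67 FPKM, and whether counting used strand is not given in the sources used here. The overlapping partners of Bax (Gm45808), Bak1 (Ggnbp1) and Bcl2 (D630008O14Rik) had at most 0.265 FPKM, which does not show how reads in shared exons were counted.

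On the deposited scale the pore formers Bax and Bak1 changed little under LPS and were lower in osteoclasts. Bax (ENSMUSG00000003873, chr7:45461697-45466898, reverse) had 56.9, 59.1 and 55.2 FPKM in untreated macrophages and 64.2, 63.6 and 62.8 FPKM with LPS. Osteoclasts had 30.5, 33.6 and 31.1 FPKM without LPS and 33.3, 32.7 and 32.2 FPKM with LPS. Every osteoclast library was below every macrophage library, by 1.80-fold in the means without LPS (log2 difference -0.83, SE 0.041, limma adjusted p = 2.05e-09). Bak1 (ENSMUSG00000057789, chr17:27019810-27029009, reverse) had 32.9, 35.4 and 36.0 FPKM in untreated macrophages and 38.5, 39.7 and 39.6 FPKM with LPS. In osteoclasts it had 29.9, 30.5 and 30.04 FPKM without LPS and 31.6, 32.7 and 29.9 FPKM with LPS. The untreated cell types lay close together for Bak1 but did not overlap (-0.20, SE 0.043, limma adjusted p = 0.00113). These cell type differences were -1.26 for Bax and -0.62 for Bak1 after rescaling to TPM, and that of Bak1 was -0.39 under quantile normalization. The ratio of Bax to Bak1 was 1.53 to 1.73 in the 6 macrophage libraries and 0.999 to 1.10 in the 6 osteoclast libraries.

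The macrophage LPS differences of the pore formers were 0.15 for Bax (SE 0.041, limma adjusted p = 0.00598) and 0.17 for Bak1 (SE 0.043, limma adjusted p = 0.00360), and their direction depended on the scaling. After rescaling to TPM they were -0.49 and -0.47, and under quantile normalization -0.54 and -0.41. The median of all genes in that comparison was 0.02 as deposited and -0.56 after rescaling to TPM, and relative to the latter Bax was at 0.064 and Bak1 at 0.088. It was -0.14 under quantile normalization, and relative to it Bax was at -0.41 and Bak1 at -0.27. With these scalings 18.5% and 37.0% of all calls in macrophages were higher, against 52.6% as deposited. Bid was called lower in macrophages after rescaling to TPM (-0.73, or -0.17 relative to the median) and under quantile normalization (-0.28, or -0.15 relative to the median). The A1 copies, Bcl2l11, Bcl2 and Bcl2l1 kept direction and call in macrophages under the 4 scalings, though the sizes for Bcl2 and Bcl2l1 moved as given above. That of Bcl2a1a moved too, from 5.59 as deposited to 9.06 by voom on recovered reads.

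**Figure D4:**
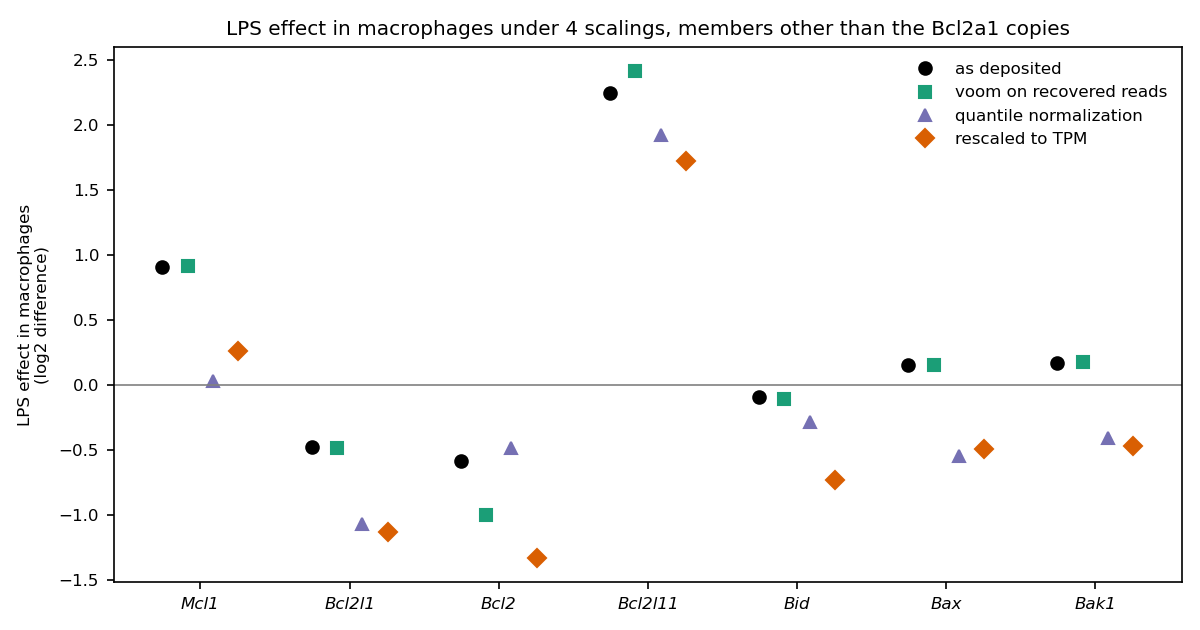
LPS effect in macrophages (y axis, log2 difference) of the 7 members other than the A1 copies under 4 scalings of the same libraries: as deposited, voom on recovered reads, quantile normalization and rescaling to TPM. Bax and Bak1 lie above 0 as deposited and by voom, and below 0 under the other two, while Bcl2l11 lies between 1.72 and 2.41.

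The LPS effect was tested for a difference between cell types by the interaction, the log2 difference in osteoclasts minus that in macrophages. It passed for 7 of 10 members, 5 lower and 2 higher, where 56.6% of all tested genes passed, 30.0% lower and 26.6% higher. After rescaling to TPM 5 members passed lower and 5 higher, and under quantile normalization 4 lower and 5 higher. The interaction was -4.22 (SE 0.136, limma adjusted p = 2.85e-10) for Bcl2a1a, -4.06 (SE 0.162, adjusted p = 1.53e-09) for Bcl2a1d and -2.63 (SE 0.195, adjusted p = 2.93e-07) for Bcl2a1b. With a pseudocount of 0.1 that of Bcl2a1a was -6.78, and by voom -7.61. Bcl2l11 had -2.08 (SE 0.079, limma adjusted p = 1.08e-09) and Mcl1 -0.84 (SE 0.054, adjusted p = 8.58e-08). The LPS differences of these 5 genes were thus smaller in osteoclasts than in macrophages. Bcl2 had the smaller difference in osteoclasts (0.43, SE 0.082, limma adjusted p = 7.58e-04), and Bid had 0.37 (SE 0.103, adjusted p = 0.00958). The interaction did not pass for Bcl2l1 (0.032, SE 0.144, limma adjusted p = 0.869), Bax (-0.11, SE 0.058, adjusted p = 0.139) or Bak1 (-0.12, SE 0.061, adjusted p = 0.129). Bcl2l1 passed after rescaling to TPM (0.54) and under quantile normalization (0.59), and Mcl1 did not pass under quantile normalization (-0.073, adjusted p = 0.398). On the TPM scale the interactions were -0.265 for Mcl1, 1.02 for Bcl2 and 0.985 for Bid, and that of Bcl2 was 0.26 under quantile normalization. Bax and Bak1 turned positive and passed under both of these scalings, at 0.47 and 0.46 on the TPM scale. That scale put the median interaction of all genes at 0.51 and made 82.0% of the calls higher, against 47.0% as deposited and 59.9% under quantile normalization. Relative to that median they were at -0.047 and -0.058, and under quantile normalization at 0.41 and 0.29 relative to a median of 0.087.

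**Figure D5:**
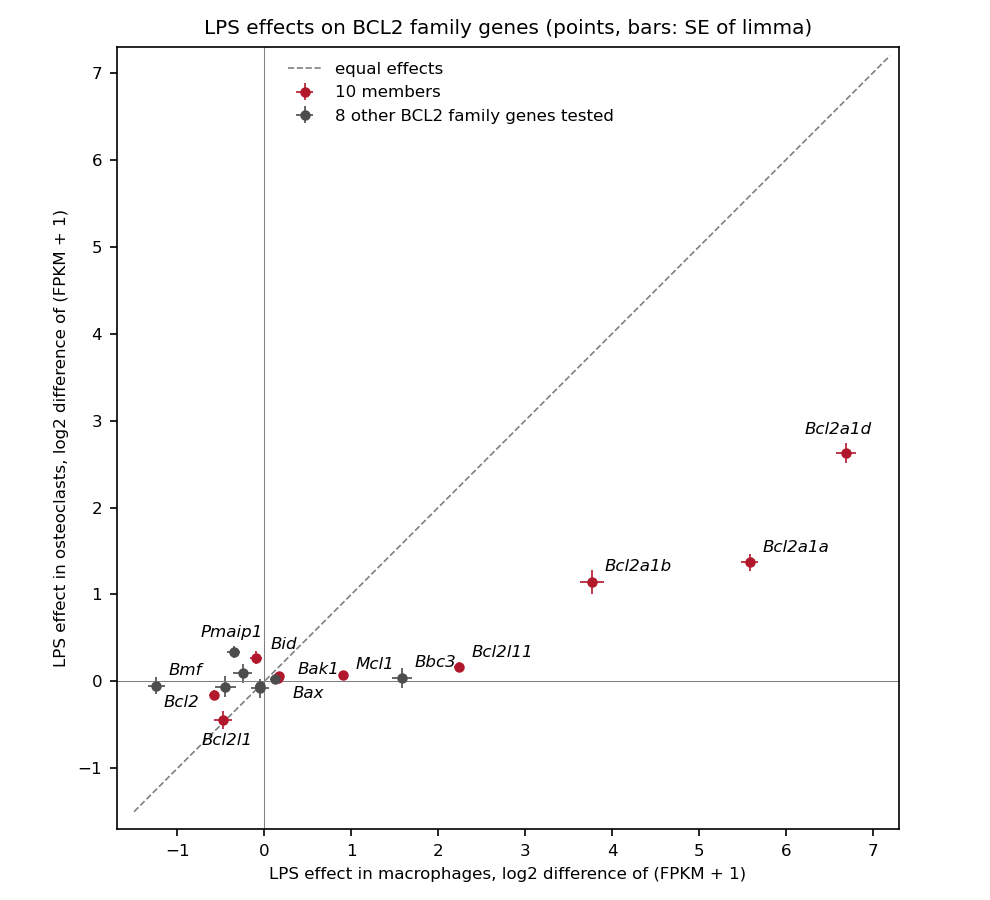
LPS effect in osteoclasts (y axis) against that in macrophages (x axis), both as log2 differences of FPKM + 1, for the 10 members (red) and 8 other tested BCL2 family genes (grey), with the SE of limma as bars and a dashed line at equal effects. The 3 A1 copies and Bcl2l11 lie far below the line, and Bcl2l1 lies on it.

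Between the cell types, 8 of 10 members differed without LPS and all 10 with LPS. Without LPS 2 were higher in osteoclasts (Mcl1 and Bcl2a1a) and 6 lower, and 77.8% of all tested genes were called, 38.8% higher and 39.0% lower. With LPS 1 was higher (Mcl1) and 9 lower, and 83.9% of all genes were called, 40.9% higher and 43.0% lower. The cell types did not overlap for 8 of 10 members without LPS and for 10 of 10 with LPS, as was the case for 81.4% and 83.6% of all genes. These 2 comparisons share no libraries with each other, but each shares libraries with both LPS comparisons. The medians of the members were -0.22 and -1.04, against 0.00 and -0.02 for all tested genes. Among LPS-treated libraries Bcl2a1d was 14.9-fold lower in osteoclasts (log2 difference -3.84, SE 0.115, limma adjusted p = 1.35e-11), Bcl2a1b 5.81-fold lower and Bcl2a1a 1.74-fold lower. Bcl2l11 was 5.69-fold lower (-2.33, SE 0.056, limma adjusted p = 2.24e-12). Mcl1 was still 1.24-fold higher (0.31, SE 0.038, limma adjusted p = 8.43e-06), at 0.47 after rescaling to TPM and 0.65 under quantile normalization. The difference of Bak1 (-0.31, SE 0.043, limma adjusted p = 2.31e-05) was not called under quantile normalization (-0.017, adjusted p = 0.712).

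The 4 death genes summed to 108 ± 2.62 FPKM (SD, n = 3) in untreated macrophages, 146 ± 1.95 after LPS, 69.9 ± 2.03 in untreated osteoclasts and 73.7 ± 2.39 in LPS-treated osteoclasts. On the TPM scale the direction in macrophages turned, from 418 ± 7.82 without to 360 ± 8.80 with LPS, while the osteoclasts held 202 ± 4.72 and 203 ± 8.54. The ratio of the survival sum to this sum was 1.47 to 1.56 in untreated macrophages, 4.64 to 4.82 in LPS-treated macrophages, 3.67 to 3.74 in untreated osteoclasts and 4.27 to 4.32 in LPS-treated osteoclasts. It was lowest in untreated macrophages and did not overlap between any of the groups. Rescaling to TPM multiplies both sums of a library by 1 factor and leaves this ratio as it is, and the ratio was not computed under quantile normalization. The ratio counts transcripts per length and says nothing of protein. The death sum holds only the members Bcl2l11, Bax, Bak1 and Bid. Of death genes outside the members, Pmaip1 had means of 3.43 FPKM in untreated macrophages and 30.1 FPKM in untreated osteoclasts. Bad had 8.07 and 18.9 FPKM and Bbc3 2.34 and 4.25 FPKM, while Bik had 0.787 and 0.0485 FPKM. The ratio was not computed with these genes.

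The rest of the family was described from 14 other genes, of which 8 passed the filter. Under LPS 1 of these rose and 3 fell in macrophages, and 1 rose in osteoclasts, with medians of -0.15 and -0.01. These are 4 of 8 and 1 of 8 called, where 69.9% and 17.7% of all tested genes were called. After rescaling to TPM all 8 were called in macrophages, 1 higher and 7 lower, where 9730 of 11335 genes were called, 1797 higher and 7933 lower. Untreated osteoclasts were higher for 7 and lower for 1, so all 8 were called in a comparison that called 77.8% of all genes. On the TPM scale 6 of 8 were called there, 5 higher and 1 lower, and Bmf was no longer called (0.12, limma adjusted p = 0.413). That scale called 9217 of 11335 genes in this comparison. Bok passed the filter only through osteoclasts and Bcl2l12 only through macrophages. With no filter 9 of 12 family genes were called, 7 higher and 2 lower, against 10915 of 25854 genes. Bmf, whose product is held at the cytoskeleton until released, had 1.26, 1.58 and 1.91 FPKM in untreated macrophages and 0.0895, 0.0765 and 0.0948 FPKM with LPS, an 18.2-fold lower mean (log2 difference -1.24, SE 0.094, limma adjusted p = 1.57e-07). In osteoclasts it had 2.27, 2.29 and 2.36 FPKM without LPS and 2.28, 1.86 and 2.47 FPKM with LPS, so the treated macrophages were the low group (interaction 1.19, SE 0.133, limma adjusted p = 1.00e-05). The macrophage LPS difference of Bmf was -2.54 on the TPM scale, -3.16 with a pseudocount of 0.1 and -4.07 by voom on recovered reads. Its interaction was 2.42, 3.09 and 4.01 in the same order. Bbc3, which encodes the p53 target PUMA, moved the other way, from 1.97, 2.18 and 2.88 FPKM to 9.48, 9.37 and 8.04 FPKM in macrophages. In osteoclasts Bbc3 had 4.08, 4.76 and 3.91 FPKM without LPS and 4.35, 5.16 and 3.74 FPKM with it (interaction -1.54, SE 0.166, limma adjusted p = 7.30e-06).

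Pmaip1 encodes NOXA, which binds and neutralizes MCL1. It had 3.33, 3.46 and 3.50 FPKM in untreated macrophages and 2.81, 2.46 and 2.15 FPKM with LPS. Osteoclasts had 29.4, 30.7 and 30.3 FPKM without LPS and 37.8, 42.05 and 35.7 FPKM with LPS. All 6 osteoclast libraries stood above all macrophage libraries, by 8.80-fold in the means without LPS. Its LPS effects passed in opposite directions, -0.35 in macrophages (SE 0.071, limma adjusted p = 7.77e-04) and 0.34 in osteoclasts (SE 0.071, adjusted p = 0.00571), and the interaction was 0.69 (SE 0.101, adjusted p = 8.92e-05). On the TPM scale the macrophage value was -1.01 and the interaction 1.29.

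Of 13 genes of caspase activation after the mitochondrial step, 12 were tested. LPS raised 7 and lowered 1 in macrophages, and raised 4 and lowered 1 in osteoclasts, with medians of 0.45 and 0.05. Called were thus 8 of 12 and 5 of 12, against 69.9% and 17.7% of all tested genes. The split depended on the scaling: in macrophages it was 4 higher and 6 lower after rescaling to TPM and 6 and 3 under quantile normalization, and in osteoclasts 3 and 2, and 3 and 3. The apoptosome genes diverged in macrophages. Apaf1, the scaffold that cytochrome c assembles, went from 5.56, 5.51 and 6.27 FPKM to 25.1, 24.9 and 25.04 FPKM under LPS. Casp9, the protease recruited to that scaffold, went from 8.86, 8.92 and 8.94 FPKM to 1.46, 1.496 and 1.66 FPKM. Osteoclasts moved less for both (interactions -1.98, SE 0.078, limma adjusted p = 1.40e-09 for Apaf1 and 1.63, SE 0.086, adjusted p = 1.49e-08 for Casp9, the latter 2.45 after rescaling to TPM). Birc2 and Birc3, the inhibitor of apoptosis genes of TNF signalling, rose in both cell types: Birc3 went from 7.90, 8.17 and 8.85 FPKM to 146, 137 and 140 FPKM in macrophages and from 21.04, 19.9 and 19.8 FPKM to 39.1, 38.3 and 39.8 FPKM in osteoclasts. Their rise was smaller in osteoclasts (interactions -3.02, SE 0.064, limma adjusted p = 2.31e-11 for Birc3 and -2.12, SE 0.093, adjusted p = 3.17e-09 for Birc2). Of 7 tested mitochondrial and endoplasmic reticulum partners among 8, LPS raised 3 and lowered 2 in macrophages, where 69.9% of all genes were called. The macrophage split was 1 higher and 5 lower after rescaling to TPM and 2 and 5 under quantile normalization, and without untreated macrophage replicate 2 only 3 of the 7 were called. In osteoclasts 0 of 7 passed by limma, where 17.7% of all genes were called, 0 had an unadjusted p under 0.05, and 0 passed by voom. Without LPS 5 of 7 were higher in osteoclasts, in a comparison that called 38.8% of all genes higher, and 0 were lower. After rescaling to TPM 4 were higher and 3 lower, and under quantile normalization 5 and 1.

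All 13 listed regulators of the members were tested. LPS raised 10 and lowered 2 in macrophages, and raised 6 and lowered 2 in osteoclasts, with medians of 0.68 and 0.09, and 10 interactions were called lower and 2 higher. Called were 12 of 13, 8 of 13 and, for the interaction, 12 of 13, against 69.9%, 17.7% and 56.6% of all tested genes. Rescaled to TPM, the macrophage split was 6 higher and 5 lower, and under quantile normalization the osteoclast split was 6 and 5. The NF-kB genes, whose products bind the A1 and Bcl2l1 promoters in other settings, rose in both cell types. Rel had 5.89, 6.62 and 7.35 FPKM in untreated macrophages and 56.1, 58.8 and 56.6 FPKM with LPS, against 9.07, 8.12 and 9.17 FPKM and 13.2, 13.2 and 14.2 FPKM in osteoclasts. The interactions were -2.36 for Rel (SE 0.096, limma adjusted p = 1.64e-09), -2.14 for Nfkb1 (SE 0.078, adjusted p = 7.21e-10) and -1.52 for Rela (SE 0.050, adjusted p = 3.13e-10), the last at -0.96 after rescaling to TPM and -0.95 under quantile normalization. Foxo3, a transcription factor known to drive Bcl2l11, had 5.58, 5.75 and 5.88 FPKM in untreated macrophages and 0.341, 0.354 and 0.320 FPKM with LPS, so it fell where Bcl2l11 rose. In osteoclasts Foxo3 had 5.55, 5.61 and 5.66 FPKM without LPS and 3.84, 4.76 and 3.86 FPKM with LPS (interaction 1.97, SE 0.093, limma adjusted p = 5.73e-09, 3.18 on the TPM scale, 3.61 by voom and 3.30 with a pseudocount of 0.1). Mitf, a transcription factor of the osteoclast and melanocyte lineages that drives Bcl2 in melanocytes, had 12.2, 12.6 and 13.4 FPKM in untreated macrophages and 66.0, 63.7 and 64.1 FPKM with LPS (interaction -1.92, SE 0.093, limma adjusted p = 7.44e-09). Fbxw7, a ubiquitin ligase subunit that marks MCL1 for degradation, had LPS effects of 0.20 in macrophages (SE 0.060, limma adjusted p = 0.0102) and -0.19 in osteoclasts (SE 0.060, adjusted p = 0.0455). The macrophage value turned to -0.34 after rescaling to TPM (limma adjusted p = 8.21e-04). The interaction of Fbxw7, called as deposited, was not called on that scale (0.039, adjusted p = 0.743). The osteoclast call for Fbxw7 was lost with no filter on low values (adjusted p = 0.0889), in 9 of the 12 fits without 1 library (adjusted p between 0.0529 and 0.120) and with the replicate number as a block (adjusted p = 0.0741).

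The genes whose log2(FPKM + 1) followed a member most closely over the 12 libraries were taken by Pearson's r from 6421 genes whose mean reached 5 FPKM. The 12 libraries fall into 4 groups, so r is a description and has no p. For Mcl1 these were Src (r = 0.998), Mmp14 (0.996) and Rilpl2 (0.996). Src rose from a mean of 1.23 FPKM in untreated macrophages to 46.2 with LPS, 109 in untreated and 124 in LPS-treated osteoclasts. For Bcl2a1b they were Sh3bp4 (r = 0.996), Nfkbib (0.995) and Bcl3 (0.994), and Nfkbib had means of 10.97, 112, 11.98 and 22.7 FPKM in the same order of groups. Bcl2l1 was followed by Ptpra (r = 0.998), Tbxas1 (0.997) and Myo1f (0.997), Bcl2l11 by Fbxw11 (r = 0.999), Ppp1r15b (0.998) and Tbl1x (0.998), and Bcl2 by Extl3 (r = 0.997), Rab7b (0.996) and Plau (0.996).

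A stretch upstream of the A1 copies is shown so that their sequence before the gene can be set beside their levels. RefSeq and GENCODE place the starts differently, with the GENCODE start 20 bases further upstream for Bcl2a1a and 64 for Bcl2a1b and for Bcl2a1d, so only aligned bases before the starts of both were kept. The sequences come from RefSeq on GRCm38.p6 and span chr9:88956714-88956855 (Bcl2a1a, forward), chr9:89199023-89199164 (Bcl2a1b, forward) and chr9:88731915-88732050 (Bcl2a1d, reverse). Capitals mark bases that are not alike in all 3 copies, including 6 bases missing from Bcl2a1d.
Bcl2a1a: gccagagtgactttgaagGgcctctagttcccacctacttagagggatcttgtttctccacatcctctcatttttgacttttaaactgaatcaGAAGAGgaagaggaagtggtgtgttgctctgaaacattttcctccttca
Bcl2a1b: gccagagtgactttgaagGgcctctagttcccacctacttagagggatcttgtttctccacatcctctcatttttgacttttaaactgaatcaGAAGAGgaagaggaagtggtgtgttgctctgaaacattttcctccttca
Bcl2a1d: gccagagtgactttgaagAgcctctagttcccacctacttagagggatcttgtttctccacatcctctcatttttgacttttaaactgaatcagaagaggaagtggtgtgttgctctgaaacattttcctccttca
Bcl2a1a and Bcl2a1b were identical over the 142 bases, and Bcl2a1d differed from each of them at 7 of 142 aligned positions. RefSeq held 13 windows for the 10 members, each from 250 bases before to 50 bases after a RefSeq start. The letters TGANTCA, with any base at N, are a loosened form of the AP-1 motif, which has C or G there. They were found on either strand in windows of Bcl2a1a, Bcl2a1b and Bcl2a1d and of no other member, and in 7.81% of all 32851 windows. In the stretches shown the match reads TGAATCA, with A at N. The copies are near-identical there, so these are not 3 separate finds. The letters GAGGAA, the core of the PU.1 motif, were found for 6 members (Bak1, Bcl2, the 3 A1 genes and Bid) and in 28.3% of all windows. The NF-kB consensus was found for Bcl2l1 alone among the members, and in 8.46% of all windows. A match is a description of these letters and not a measured site.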

How the data were processed

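RNA sequencing of 12 libraries (4 groups of 3, grouped by their titles) was deposited as 1 table. Per the submitters' processing notes, fastp, STAR, featureCounts, DESeq2 and build mm10 were used, with no versions or roles given here. The deposited values are FPKM, fragments per kilobase of gene scaled by library, as the deposited table is named. Multiplied by merged exon lengths of GENCODE M21 on GRCm38, they gave whole reads, within 0.02 of a read, for 24997 of 25854 genes above 0 (96.7%). The 11335 genes that reached 1 FPKM in 3 or more libraries were tested on log2(FPKM + 1) by limma (version 3.58.1, R 4.3.3; eBayes with a variance trend), with 1 fit of 4 group means to all 12 libraries, two-sided, adjusted by Benjamini-Hochberg and called under 0.05. The fit was tested on simulated data.

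The members and lists were chosen with earlier results of these data known. All members were named, and of the other lists the genes with a called interaction of at least 1 (log2) or LPS effects called in opposite directions. Alternatives were no filter, a pseudocount of 0.1, TPM, quantile normalization, the replicate number as a block, voom on recovered reads (10758 genes, of which 7542, 2297, 8475, 8924 and 5763 were called for the LPS effect in macrophages and in osteoclasts, the cell types without and with LPS, and the interaction), and each library left out.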

Additional observations from a re-analysis of the deposited data

Results flagged for a closer look

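For 7 of the 10 members LPS acted by a different amount in osteoclasts than in macrophages by limma's interaction test, adjusted over all genes tested. The effect in osteoclasts minus that in macrophages, on the log2 scale, was -4.22 for Bcl2a1a, -4.06 for Bcl2a1d, -2.63 for Bcl2a1b, -2.08 for Bcl2l11, -0.837 for Mcl1 (not called under quantile normalization, -0.0726, adjusted p = 0.398), 0.429 for Bcl2 and 0.366 for Bid. The same test passed for 3 other BCL2 family genes, at 1.19 for Bmf, -1.54 for Bbc3 and 0.695 for Pmaip1. Among genes of caspase activation the difference was -1.98 for Apaf1, 1.63 for Casp9, -2.12 for Birc2 and -3.02 for Birc3. Among regulators it was -0.395 for Fbxw7 (0.0386 and not called after rescaling to TPM, limma adjusted p = 0.743), 1.97 for Foxo3, -1.92 for Mitf, -2.36 for Rel, -1.52 for Rela and -2.14 for Nfkb1. Over all tested genes 56.6% passed this test.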

How the results depend on the processing

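Counted in either direction, no number of called members or of calls over all genes moved by more than 1.5 times in any of the 18 alternatives. Those of 2 other lists did: other BCL2 family genes went from 4 to 8 called (LPS in macrophages, TPM) and 3 to 8 (interaction, TPM), and partners from 5 to 3 (LPS in macrophages, without untreated macrophage replicate 2). Split by direction some did: for LPS in macrophages, members lower went from 2 to 5 (TPM and quantile normalization) and all genes higher from 4168 to 1797 (TPM), lower from 3753 to 7933. For LPS in osteoclasts members lower went from 1 to 2 (TPM, quantile, voom and the pseudocount of 0.1), and all genes lower from 747 to 1221 (TPM), 1514 (quantile) and 455 (without untreated osteoclast replicate 3). Untreated cell types had 4401 genes higher and 4421 lower, against 2760 (TPM) for higher. Interactions called higher went from 2 to 5 members (TPM and quantile) and from 3012 to 7175 genes (TPM), and lower from 3401 to 1572. In all, 1989 of 2060 values of 23 named genes under alternatives kept direction and side of the threshold. Deviations from the group means correlated at -0.070 to 0.104 over 18 same-number pairs of libraries and at -0.137 to 0.11 over 36 different-number pairs. Between treated and untreated libraries of 1 cell type these ranges were -0.053 to 0.104 and -0.137 to 0.048. Whether the replicate numbers pair the libraries is thus not settled. With the replicate block 1 call of a named gene was lost, that of Fbxw7 in osteoclasts (-0.194, limma adjusted p = 0.0741). Of the 35 values that changed sign, the cause was not tested. After rescaling to TPM these were, for LPS in macrophages, Bax -0.491, Bak1 -0.467 and Fbxw7 -0.341. For LPS in osteoclasts they were Mcl1 -0.00115, Bax -0.0253, Bak1 -0.0126 and Bbc3 -0.0202. For untreated cell types they were Bcl2a1b -0.255, Bcl2a1d -0.081 and Rel -0.00507, and for the interaction Bax 0.466, Bak1 0.455 and Fbxw7 0.0386. Under quantile normalization they were Bax -0.544 and Bak1 -0.405 (LPS, macrophages), Mcl1 -0.0435, Bax -0.0497, Bak1 -0.0338 and Bbc3 -0.0019 (LPS, osteoclasts), Fbxw7 0.0889 and Foxo3 0.011 (untreated cell types), and Bax 0.495 and Bak1 0.372 (interaction). The interaction of Bcl2l1 was -0.0795 with a pseudocount of 0.1, -0.0929 by voom, and between -0.0424 and -0.000484 in 6 fits without 1 library (-0.0334, -0.00758, -0.00219 and -0.00181 between them), with 0.139 as the highest of the 12. Without 1 library, the LPS difference in osteoclasts ranged from -0.109 to 0.0292 for Bmf and from -0.0566 to 0.133 for Bbc3 (-0.00683 without untreated osteoclast replicate 3), and the untreated cell type difference of Bcl2a1b from -0.0208 to 0.228. Voom did not test Pmaip1, the 1 called gene of that family for LPS in osteoclasts. Depth limits the low genes: Bcl2a1a had 1 or 2 reads per untreated macrophage library.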
